A study of Mus musculus with 6 samples.

Results

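Trp53, its negative regulators and its growth-arrest targets were followed in mouse embryonic stem (ES) cells of a study on the loss of TAF13, a subunit of the promoter-binding complex TFIID. The 10 genes are Trp53, Mdm2, Mdm4, Cdkn1a, Ccng1, Plk2, Btg2, Ppm1d, Zmat3 and Phlda3. They were taken by symbol from the 55401 Ensembl identifiers of the deposited count table, and each symbol matched 1 identifier. The rule that names them uses function and no measured value, but it was written with earlier results of these data known.

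Polyadenylated RNA was sequenced from 3 libraries labelled KO, whose cells received doxycycline, and from 3 libraries labelled as 3XHA-Taf13 expressing, whose cells were untreated. All cells were cultured for 7 days under these conditions, and each library came from its own Petri dish. The KO label and doxycycline always go together, so an effect of the drug and an effect of TAF13 loss cannot be told apart. The labels and design text used here do not state the strain, the number of clones, the construct that carries the tagged Taf13 or whether feeder cells were present.

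The p53 pathway works as a loop. The p53 protein, encoded by Trp53, is a transcription factor held at a low level by the ubiquitin ligase MDM2 and held inactive by the related protein MDM4. Stress frees p53 from both, and p53 then raises genes that stop the cell cycle together with genes, Mdm2 among them, that switch p53 off again. Mouse ES cells are known for abundant p53 and for a weak G1 checkpoint.

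Total counts ran from 31219328 to 50328010 per library. Expressing replicate 1 stood apart from the other expressing libraries, with chi-square per degree of freedom of 37.9 and 30.8 against them, while every other pair within a group gave at most 6.2. Its deviations from the group mean correlated with transcript GC content (r = 0.553 over tested genes, which are not independent of each other). The common biological coefficient of variation was 9.05% over all 6 libraries and 4.58% without that library, so adjusted p-values without it are far smaller. Taf13 did not check the labels: it had 12.1, 14.1 and 13.5 CPM (counts scaled to library size, on TMM-scaled library sizes) in the libraries labelled KO and 7.82, 10.1 and 12.2 CPM in the expressing libraries, so a loss of the transcript was not seen. Its log2 fold change was 0.40 (SE 0.147, adjusted p = 0.0578, edgeR). Taf13 passed the threshold as higher under 10 of 15 alternatives, with adjusted p-values from 0.00257 to 0.166. The lowest came from the edgeR fit with no filter on low counts, whose p-values say nothing about stability. Reads of the tagged and the chromosomal copy are not separated in these counts, and every direction below rests on the labels. ES cell markers were present in both groups: the 12 listed markers summed to 3930 to 4020 CPM in the libraries labelled KO and 5340 to 5580 CPM in the expressing libraries.

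Because the members of this set are grouped as p53 targets, their start regions are shown for the sequence that p53 binds. RefSeq promoter windows on build GRCm38.p6 (mm10), 250 bases before to 50 after a start, were found for 9 of the 10 genes, all but Zmat3, in 11 windows, since Mdm4 and Cdkn1a have a second start. The p53 half-site was searched as a 10-base pattern, a CNNG core with A or T at both N, preceded by purines and followed by pyrimidines; the pattern reads the same on both strands. A paired site was scored as 2 half-sites separated by at most 13 bases, with the C and G of each core kept and at most 2 mismatches in all. Paired sites were present in 2 of the 11 windows, against 4.09% of the 32851 windows in the table, and an exact half-site in 5 of the 11, against 8.36%.

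The windows of Cdkn1a and Ccng1 held the paired sites and are printed whole, 5′ to 3′ on the gene's strand, with the bases of matched half-sites in capitals. The Cdkn1a window lies at chr17:29090729-29091028 on the plus strand and the Ccng1 window at chr11:40755237-40755536 on the minus strand.
Cdkn1a: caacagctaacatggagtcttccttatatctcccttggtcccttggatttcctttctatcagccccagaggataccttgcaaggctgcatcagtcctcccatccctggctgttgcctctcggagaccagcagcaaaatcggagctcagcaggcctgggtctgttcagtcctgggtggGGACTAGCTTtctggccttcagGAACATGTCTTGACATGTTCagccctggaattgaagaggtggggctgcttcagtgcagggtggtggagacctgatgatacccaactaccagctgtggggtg
Ccng1: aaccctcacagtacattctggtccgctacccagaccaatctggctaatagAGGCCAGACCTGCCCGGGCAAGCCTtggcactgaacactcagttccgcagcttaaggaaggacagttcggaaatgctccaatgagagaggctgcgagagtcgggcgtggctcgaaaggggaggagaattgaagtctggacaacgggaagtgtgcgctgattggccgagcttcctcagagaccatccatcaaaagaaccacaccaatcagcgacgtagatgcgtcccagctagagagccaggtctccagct
The Cdkn1a window belongs to the upstream of its 2 listed starts. Its abutting half-sites cover chr17:29090928-29090947 with 1 mismatch and begin 2841 bases before the downstream start; the first of them also pairs, with 0 mismatches and a gap of 12 bases, with a half-site upstream, from base -73 to base -42 of the window's own start. The Ccng1 half-sites abut at chr11:40755462-40755481, from base -195 to base -176 counted from the start, with 1 mismatch; an overlapping pair that begins at base -200 has 2 mismatches and a gap of 5 bases.

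Single exact half-sites were present in the windows of Mdm2, Trp53 and Ppm1d, shown here because these genes encode the core of the loop. The half-site begins 186 bases before the start of Mdm2, 75 bases before that of Trp53 and 132 bases before that of Ppm1d.
Mdm2: GAACTTGCCT
Trp53: GGACTTGCCC
Ppm1d: GAGCTTGCTC
The TATA box letters TATAAA, searched on both strands of the same windows, occurred in 1 of the 11, that of Trp53 from base -248 to base -243 on the opposite strand, against 13.6% of all windows. No half-site was found in the windows of Plk2, Btg2, Phlda3 and Mdm4 or in the downstream window of Cdkn1a, which says only that these letters are not in these windows. Sequence beyond these windows, including the rest of Mdm2, was not searched. A match describes the sequence and does not show binding. The Mdm2 half-site is therefore not shown to be the site through which p53 induces Mdm2.

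Of the 10 genes, 8 rose in the libraries labelled KO and 0 fell (edgeR quasi-likelihood test, Benjamini-Hochberg adjusted p under 0.05 over all 17778 tested genes; 0 fell at an unadjusted p under 0.05). DESeq2 likewise called 8 higher and 0 lower. Across all tested genes edgeR called 19.2% higher and 20.8% lower, and DESeq2 16.8% and 16.7%. In the 8 genes that rose, every library labelled KO lay above every expressing library, as it did for 26.4% of tested genes. Plk2, Cdkn1a, Btg2 and Ccng1 rose by 2-fold or more, which 5.22% of tested genes did. The median log2 fold change of the 10 genes was 0.83, against -0.01 for all tested genes. All 10 were well counted, with 1404 to 68406 reads in a library, and all 10 passed the filter on low counts.

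**Figure D1:**
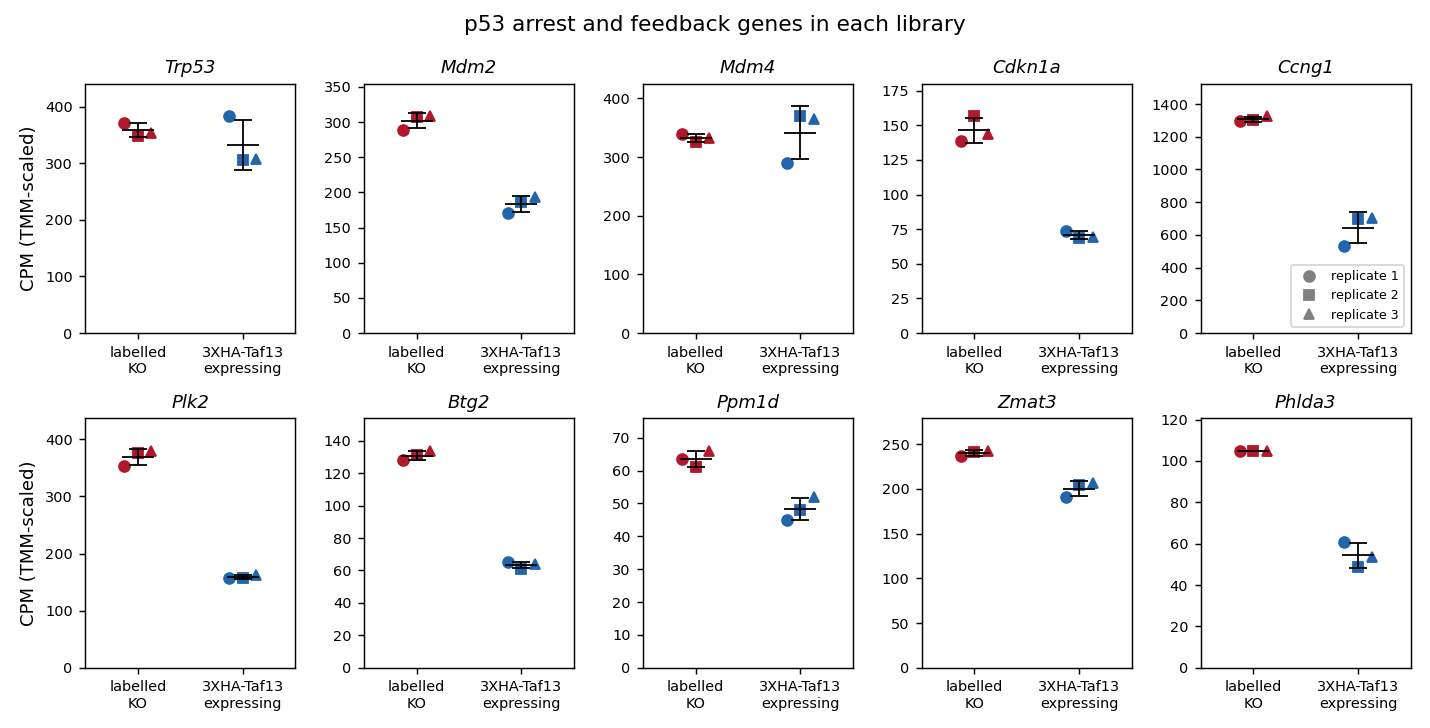
Level of each gene in CPM (y axes, from 0, each with its own scale) in the 3 libraries labelled KO (red, left) and the 3 expressing libraries (blue, right). Symbols mark replicates, and black bars the mean and SD of 3. Every red point lies above every blue point except for Trp53 and Mdm4, where expressing replicate 1 stands apart from the other expressing libraries.

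Trp53 (chromosome 11, 69580359 to 69591873, mm10) itself had 372, 349 and 353 CPM in the libraries labelled KO, against 384, 305 and 308 CPM in the expressing libraries. The groups overlapped because expressing replicate 1 was the highest of the 6, while the other expressing libraries lay below all 3 libraries labelled KO. The log2 fold change was 0.11 (SE 0.0877, 95% interval -0.09 to 0.31), with an adjusted p of 0.355 (edgeR). Without expressing replicate 1 it was 0.25 with an adjusted p of 5.13e-07 (edgeR), and with the GC trend removed from all libraries 0.13 with an adjusted p of 0.0449. Over its alternatives the adjusted p ran from 5.13e-07 to 0.704. The deviation of that library with GC content stands beside this result, and its part in it was not tested. The processed pseudogene Trp53-ps held 487 counts over the 6 libraries, so few reads were assigned to that copy.

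Mdm4 (chromosome 1, 132959484 to 133030561), the p53 inhibitor that pairs with MDM2, had 340, 326 and 333 CPM in the libraries labelled KO, against 289, 370 and 365 CPM in the expressing libraries. Expressing replicate 1 was here the lowest of the 6 libraries and the other expressing libraries the highest, the reverse of Trp53. The log2 fold change was -0.04 (SE 0.0891, 95% interval -0.24 to 0.16, adjusted p = 0.772, edgeR). It was -0.11 without expressing replicate 1 (adjusted p = 0.006, edgeR) and -0.12 with the GC trend removed (adjusted p = 0.0215), so that 9 of the 10 genes were higher and 1 lower under both, against backgrounds of 26.2% higher and 24.7% lower without that library and of 23.1% and 30.0% with the GC trend removed. Its sign turned with library totals alone (0.06) and without expressing replicate 2 (0.02) or 3 (0.03), and the adjusted p ran from 0.006 to 0.909 over its alternatives. No direction is therefore given for Mdm4.

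Mdm2 (chromosome 10, 117688875 to 117710758), the ubiquitin ligase that marks p53 for degradation and is itself induced by p53, had 289, 307 and 308 CPM in the libraries labelled KO, against 171, 186 and 194 CPM in the expressing libraries. Its groups did not overlap, and it rose by a log2 fold change of 0.72 (SE 0.0634, adjusted p = 3.85e-05, edgeR), or 1.64-fold. The ratio of Mdm2 to Mdm4 counts was 0.851, 0.942 and 0.927 in the libraries labelled KO, against 0.591, 0.504 and 0.53 in the expressing libraries. This ratio needs no library scaling, and its groups did not overlap either; with 3 libraries against 3 the two-sided exact permutation test gave p = 0.1, the smallest it can give.

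Ppm1d (chromosome 11, 85311244 to 85347066) encodes WIP1, a phosphatase that removes activating phosphates from p53 and from the kinases that signal to it. It had 63.6, 61.0 and 66.0 CPM in the libraries labelled KO, against 45.0, 48.0 and 51.8 CPM in the expressing libraries. The log2 fold change was 0.40 (SE 0.0716, adjusted p = 0.0021, edgeR), or 1.32-fold. Its 95% interval, 0.23 to 0.56, ended just below that of Mdm2, which began at 0.57.

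Ccng1 (chromosome 11, 40748552 to 40755311) encodes cyclin G1, which brings the phosphatase PP2A to MDM2 and so favours MDM2 activity. It had 1296, 1300 and 1326 CPM in the libraries labelled KO, against 534, 695 and 703 CPM in the expressing libraries. The libraries labelled KO lay close together and the expressing libraries spread more, with replicate 1 lowest. It rose by a log2 fold change of 1.02 (SE 0.0966, adjusted p = 5.42e-05, edgeR), and by 0.93 without expressing replicate 1. Ccng1 carried the most reads of the set, and the paired half-sites printed above lie in its promoter window.

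Cdkn1a (chromosome 17, 29090976 to 29100727) encodes p21, the inhibitor of cyclin-dependent kinases through which p53 halts the cycle. It had 139, 157 and 144 CPM in the libraries labelled KO, against 73.8, 68.3 and 69.6 CPM in the expressing libraries. The lowest library labelled KO was far above the highest expressing library. The log2 fold change was 1.05 (SE 0.0668, 95% interval 0.90 to 1.2, adjusted p = 5.95e-06, edgeR), a 2.07-fold rise. KO replicate 2, the highest for Cdkn1a, also held the highest sum of the 12 fibroblast markers (273 CPM; the remaining libraries labelled KO had 167 and 170 CPM, and the expressing libraries 170 to 208 CPM). Without it the log2 fold change of Cdkn1a was 1.00 (adjusted p = 1.01e-04, edgeR). An annotated transcript, AC167363.2, overlaps 273 exonic bases of Cdkn1a on the opposite strand and held 32 counts over all libraries.

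Plk2 (chromosome 13, 110395046 to 110400844), a polo-like kinase that acts in centriole duplication, had 354, 375 and 380 CPM in the libraries labelled KO, against 156, 158 and 163 CPM in the expressing libraries. Its rise was the largest of the 10, with a log2 fold change of 1.22 (SE 0.0553, adjusted p = 1.13e-06, edgeR), or 2.32-fold, and 3.49% of tested genes had a higher fold change. It was the sole member whose 95% interval, 1.09 to 1.34, lay wholly above 2-fold.

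Btg2 (chromosome 1, 134075170 to 134079120), an antiproliferative protein that recruits the CCR4-NOT deadenylase to messenger RNA, had 128, 131 and 134 CPM in the libraries labelled KO, against 65.2, 61.2 and 63.9 CPM in the expressing libraries. Both groups were tight and far apart. The log2 fold change was 1.05 (SE 0.0574, adjusted p = 2.92e-06, edgeR), or 2.06-fold.

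Phlda3 (chromosome 1, 135766119 to 135769136) encodes a pleckstrin homology domain protein that competes with AKT for membrane lipids. It had 105, 105 and 105 CPM in the libraries labelled KO, against 60.7, 48.8 and 53.5 CPM in the expressing libraries. The spread in the libraries labelled KO was 0.0806 CPM (SD, n = 3), narrower than in any other member. That is below what counting error alone would give for 3653, 4728 and 5405 counts, so it is not read as a trait of the gene. Phlda3 rose by a log2 fold change of 0.95 (SE 0.0805, adjusted p = 2.99e-05, edgeR), and by 1.06 without expressing replicate 1.

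Zmat3 (chromosome 3, 32334792 to 32366014), a zinc finger protein that binds RNA, had the smallest rise. It had 236, 241 and 242 CPM in the libraries labelled KO, against 191, 204 and 206 CPM in the expressing libraries. The groups did not overlap, but the log2 fold change was only 0.26 (SE 0.0553, adjusted p = 0.00488, edgeR), or 1.2-fold, and 27.2% of tested genes had a higher one.

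**Figure D2:**
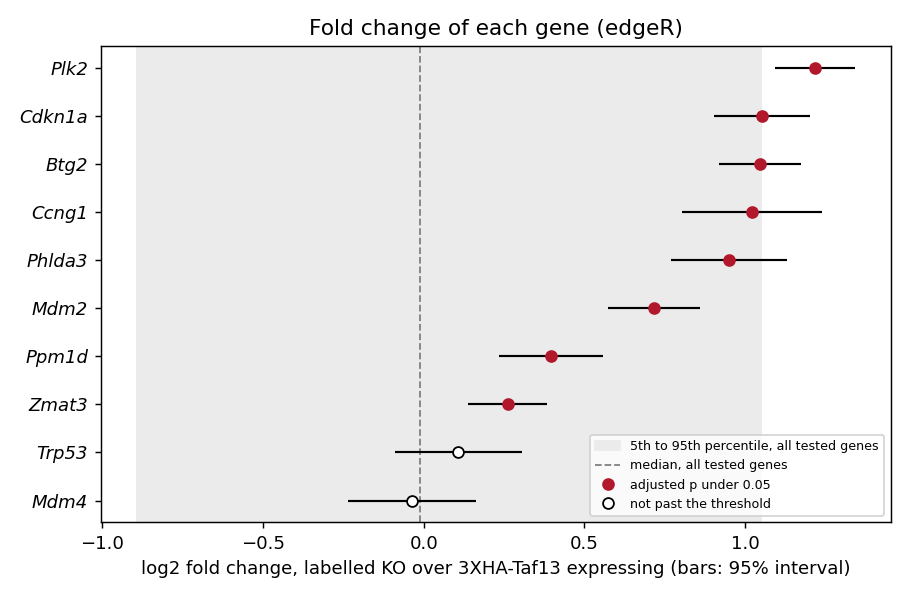
Log2 fold change of each gene, libraries labelled KO over expressing libraries (x axis), with its 95% interval from edgeR. Filled points passed an adjusted p of 0.05; the grey band holds the 5th to 95th percentile of all tested genes (-0.893 to 1.05) and the dashed line is their median. Plk2, Cdkn1a, Btg2, Ccng1 and Phlda3 lie near or above 1, Mdm2 at 0.72, Ppm1d and Zmat3 below 0.5, and the intervals of Trp53 and Mdm4 include 0.

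The fold changes thus fell into a graded order. The intervals of Cdkn1a, Btg2, Ccng1 and Phlda3 overlapped one another and that of Plk2. Overlap is not a test of a difference, and differences between genes were not tested. Over the alternatives Plk2 ranged from 1.16 to 1.31. Cdkn1a reached at most 1.14, Btg2 1.14, Ccng1 1.12 and Phlda3 1.06. The interval of Mdm2 ended at 0.86, below the start of those of Plk2, Btg2 and Cdkn1a but above the start of those of Ccng1 (0.80) and Phlda3 (0.77). Zmat3 and Ppm1d overlapped each other and ended below the start of the Mdm2 interval. The count ratio of Cdkn1a to Trp53 was 0.372, 0.448 and 0.407 in the libraries labelled KO, against 0.192, 0.224 and 0.226 in the expressing libraries (two-sided exact permutation p = 0.1, the smallest that 3 against 3 can give).

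Levels can be compared between genes only per length of exon. On that scale, CPM per kilobase of merged exons, Ccng1 was the highest of the 10 in both groups, with 372 ± 4.61 in the libraries labelled KO and 183 ± 27.2 in the expressing libraries (SD, n = 3 each). Trp53 was next in both, with 88.6 ± 3.06 in the libraries labelled KO and 82.2 ± 10.9 in the expressing libraries (SD, n = 3 each). Plk2 followed in the libraries labelled KO, with 82.3 ± 3.08. In the expressing libraries it had 35.4 ± 0.771, with the mean of Mdm2 just above it (SD, n = 3 each). Phlda3 had 67.2 ± 0.0517 in the libraries labelled KO and 34.8 ± 3.84 in the expressing libraries (SD, n = 3 each).

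Mdm2 had 59.4 ± 2.1 CPM per kilobase in the libraries labelled KO and 36.1 ± 2.26 in the expressing libraries (SD, n = 3 each). In the expressing libraries Mdm2, Plk2 and Phlda3 did not differ beyond their spread, whereas in the libraries labelled KO the 3 genes were spaced apart. Btg2 came next with 47.7 ± 1.05 in the libraries labelled KO and 23.1 ± 0.748 in the expressing libraries, and Cdkn1a had 41.2 ± 2.6 in the libraries labelled KO and 19.9 ± 0.809 in the expressing libraries (SD, n = 3 each).

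The lowest 3 in the libraries labelled KO were Mdm4 at 22.5 ± 0.459, Zmat3 at 20.98 ± 0.281 and Ppm1d at 20.01 ± 0.791 CPM per kilobase (SD, n = 3 each). Zmat3 and Ppm1d did not differ there beyond their spread between libraries, although Zmat3 was above Ppm1d within each library labelled KO. In the expressing libraries Mdm4 stood at 23.1 ± 3.05, Zmat3 at 17.5 ± 0.74 and Ppm1d at 15.2 ± 1.08 CPM per kilobase. Mdm4 and Btg2 did not differ there beyond their spread, while in the libraries labelled KO Btg2 was above Mdm4 in every library. The merged exons of Mdm4 and Zmat3 span 14.8 and 11.4 kilobases, more than any one transcript may use, which lowers their values on this scale.

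**Figure D3:**
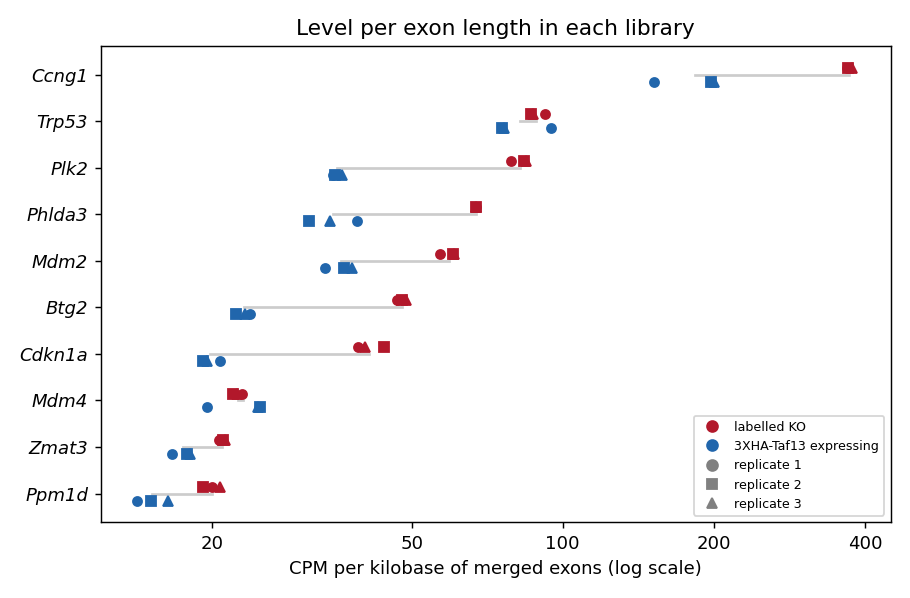
Level of each gene in CPM per kilobase of merged exons (x axis, log scale) in each library, libraries labelled KO in red above expressing libraries in blue, with symbols for replicates and grey lines joining the group means. Ccng1 is highest in all 6 libraries, and Plk2, Cdkn1a, Btg2 and Ccng1 show the widest gaps between the group means on this log axis (2.32-, 2.07-, 2.06- and 2.03-fold).

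The other genes of the pathway were read from lists by role, each against the same 19.2% higher and 20.8% lower among all tested genes; a few genes, such as Plk1 and Cdkn2a, stand in more than one list. Of 14 tested p53 targets of apoptosis, 9 rose and 0 fell (lower ones numbered 2 at an unadjusted p under 0.05, and DESeq2 called 0 lower). Their median log2 fold change was 0.37. Apaf1, the scaffold of the apoptosome, had 158 ± 0.291 CPM in the libraries labelled KO and 90.7 ± 3.64 CPM in the expressing libraries (SD, n = 3 each; log2 fold change 0.80, SE 0.0562). The death receptor gene Tnfrsf10b (0.75, SE 0.0649), the membrane protein gene Perp (0.78, SE 0.0856) and the PIDDosome scaffold gene Pidd1 (0.68, SE 0.0794) rose as well. The 5 that did not pass, named after their values were seen, were Trp53i11 (-0.24), Siva1 (-0.21), Bax (-0.17), Aen (0.08) and Bbc3, which encodes PUMA (-0.0048). With the GC trend removed 2 of this list were called lower, against 30.0% of all genes there, and without expressing replicate 2 also 2, against 20.1%.

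Other p53 targets, of arrest, metabolism and DNA repair, went both ways. Of 27 tested, 11 rose and 4 fell, with a median log2 fold change of 0.13. Ddit4, an inhibitor of mTORC1 (0.80, SE 0.062), Polk, a translesion polymerase (0.80, SE 0.0637), Ercc5, a nuclease of excision repair (0.56, SE 0.0528), and Ak1, adenylate kinase 1 (0.68, SE 0.0778), had the smallest p among those that rose. Those that fell were Sesn1, a sestrin (-0.45, SE 0.0822), Gdf15, a secreted stress cytokine (-1.79, SE 0.343), Abcb1a, a drug efflux pump (-0.51, SE 0.125), and Pltp, a lipid transfer protein (-0.26, SE 0.0928). Gdf15 was low, with 0.31 ± 0.0962 CPM in the libraries labelled KO and 1.09 ± 0.366 CPM in the expressing libraries (SD, n = 3 each). Without expressing replicate 1, 17 were higher and 3 lower, against 26.2% and 24.7% of all genes.

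Genes whose products act on p53 mostly did not rise. Of 25 genes listed as ubiquitin ligases, kinases and cofactors, 2 rose and 11 fell, with a median log2 fold change of -0.16. The list also holds genes of deubiquitinases (Usp7, Usp10, Otub1) and of ribosomal proteins (Rpl5, Rpl11). Named after their values were seen, Usp7 (-0.32), Usp10 (-0.35) and Otub1 (-0.27) fell. Among the ligases Trim24 and Trim28 fell, and Cop1, Rchy1 and Huwe1 did not pass. Among the kinases Chek2 fell, and Atm, Atr, Chek1 and Hipk2 did not pass. Trim28, a corepressor that works with MDM2, fell to 901 ± 16.4 CPM in the libraries labelled KO, against 1861 ± 189 CPM in the expressing libraries (SD, n = 3 each; log2 fold change -1.05, SE 0.0726). Trp53bp1, a damage response scaffold (-0.49, SE 0.0601), Kat5, an acetyltransferase of p53 (-0.63, SE 0.0821), and Npm1, a nucleolar protein that binds MDM2 (-0.56, SE 0.0765), also fell, and reads of Npm1 may be shared with its pseudogenes. The same may hold for Rpl5 and Rpl11. Rpl11, named after its values were seen, fell at a low level, 7.37 ± 0.67 CPM in the libraries labelled KO and 12.1 ± 0.981 CPM in the expressing libraries (SD, n = 3 each). Cdkn2a, whose products include the MDM2 inhibitor ARF (0.71, SE 0.108), and Setd7, a lysine methyltransferase (0.36, SE 0.0654), rose. The number lower was 18 without expressing replicate 1, against 24.7% of all genes there, and 18 with the GC trend removed, against 30.0%.

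Cell cycle genes that p21 is known to repress through RB and the DREAM complex fell in part. Of 25, 14 fell and 0 rose (DESeq2 also called 0 higher, and an unadjusted p under 0.05 gave 0). The median log2 fold change was -0.29. E2f2, a transcription factor of S phase entry (-0.84, SE 0.0875), Top2a, topoisomerase II (-0.48, SE 0.0599), Mybl2 (-0.52, SE 0.0701) and Aurka, a mitotic kinase (-0.49, SE 0.0673), had the smallest p. With the GC trend removed, with library totals alone or without expressing replicate 1, 1 gene of the list was called higher, where 23.1%, 25.1% and 26.2% of all genes were.

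Among the 7 genes for inhibitors of cyclin-dependent kinases, Cdkn1a rose together with Cdkn2b (1.24, SE 0.122) and Cdkn2a, while the nearest relatives of Cdkn1a fell: Cdkn1c, which encodes p57 (-0.36, SE 0.0605), and Cdkn1b, which encodes p27 (-0.59, SE 0.15). The number lower was 1 without expressing replicate 2, expressing replicate 3 or KO replicate 2, where 20.1%, 14.7% and 14.7% of all genes were lower. Of 16 tested paralogues of the 10 genes, 2 rose and 5 fell, with a median log2 fold change of -0.11. Phlda1 rose (0.89, SE 0.0847), as did Trp73, the p53 relative (0.52, SE 0.112), whereas Phlda2 (-1.02, SE 0.12), Plk1 (-0.42, SE 0.0801), Ppm1g (-0.24, SE 0.0564), Cdkn1c and Cdkn1b fell. With library totals alone 4 paralogues were higher, against 25.1% of all genes there, and without expressing replicate 1 also 4, against 26.2%. With the GC trend removed 8 were lower, against 30.0%.

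**Figure D4:**
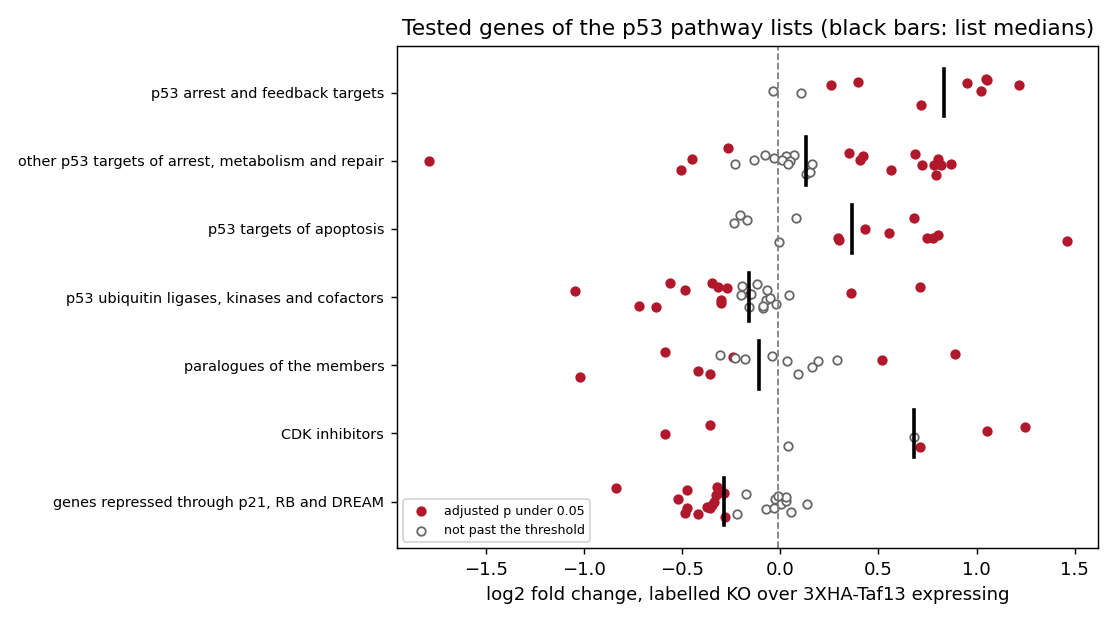
Log2 fold change of every tested gene (points), libraries labelled KO over expressing libraries (x axis), in the p53 arrest and feedback set and 6 lists of pathway genes (rows). Red points passed an adjusted p of 0.05, black bars are list medians, and the dashed line is the median of all tested genes. The arrest and feedback set has its median at 0.83, the apoptosis targets at 0.37 and the DREAM-repressed genes at -0.29; vertical scatter within a row carries no meaning.

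Markers of other cell types that ES cultures can hold are given beside the set. Each list stands against the same 19.2% higher and 20.8% lower among all tested genes. All 13 primitive endoderm markers rose (DESeq2 called 0 lower, and 0 were lower at an unadjusted p under 0.05), and they summed to 1070 to 1090 CPM in the libraries labelled KO and 388 to 467 CPM in the expressing libraries. Fibroblast markers numbered 4 higher and 1 lower of 12. Without KO replicate 2, 3 were higher and 3 lower, against 14.1% and 14.7% of all genes. The number lower was 2 without expressing replicate 2, against 20.1% of all genes. It was also 2 with no filter, where 3917 of the 33589 genes with a count were lower. The fibroblast markers summed to 167 to 273 CPM in the libraries labelled KO and 170 to 208 CPM in the expressing libraries. No marker of the 3 lists was at 0 in all libraries. ES cell markers numbered 0 higher (likewise 0 in DESeq2 and 0 at an unadjusted p under 0.05) and 11 lower of 12. The part of primitive endoderm cells in the rise of the p53 targets was not tested, and in bulk RNA a change in the number of cells of a type and a change in RNA per cell cannot be told apart. Without KO replicate 2, the library with the highest fibroblast sum, 8 of the 10 genes were higher and 0 lower, against 14.1% and 14.7% of all genes tested there.

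The genes whose pattern over the 6 libraries was most like that of 3 members were read from 9404 other genes of at least 10 CPM, by the root-mean-square difference of deviations on the log2(CPM + 1) scale. These deviations include the difference between the groups. Likeness therefore largely restates a similar fold change and is not separate support for a link between genes. For Mdm2 they were Rap2a (0.0293), Prtg (0.0299) and the p53 target Tnfrsf10b (0.0305). Their log2 fold changes were 0.77, 0.68 and 0.75, against 0.72 for Mdm2. The nearest to Cdkn1a were Sparc (0.0417), Tpm1 (0.0429) and Vim (0.044), and Btg2 was 6th (0.0516), the nearest of the other members. The nearest to Trp53 were Impdh1 (0.0223), Hgs (0.0229) and Mtch1 (0.0241), and the nearest of the other members was Zmat3 at number 3109 (0.164). The remaining members lay between Ppm1d at number 5073 (0.213) and Plk2 at number 9195 (0.564), with Mdm2 at 8222 and Cdkn1a at 9010.

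**Figure D5:**
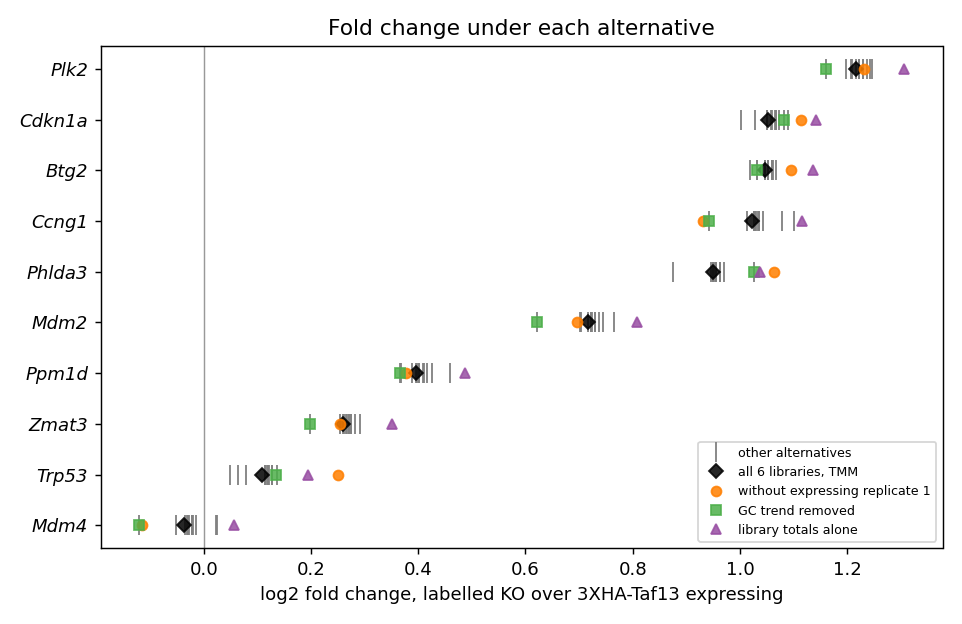
Log2 fold change of each gene, libraries labelled KO over expressing libraries (x axis), in the reported fit (diamonds) and under 15 alternatives, of which 3 are marked by colour. The 8 genes that rose stay to the right of 0 throughout (lowest value 0.20, Zmat3 with the GC trend removed), while Trp53 ranges from 0.05 to 0.25 and Mdm4 lies on both sides of 0.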

How the data were processed

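Read counts per Ensembl gene, whole numbers and not normalized, were deposited by the authors for 6 libraries. Per the labels' protocols the kit was a stranded poly(A) kit using dUTP. The submitters' processing notes name the build mm10 and the tools HTSeq 0.6.1p1, STAR 2.5.3a, cutadapt 1.10 and bcl2fastq 2.20.0.422. Their settings, strand option and annotation release were not given in the sources used here, so reads of overlapping genes may not be fully separated. GENCODE annotation of the same build named 55141 of 55401 identifiers.

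The tests used edgeR 4.0.16 in R 4.3.3: filterByExpr (minimum count 10, total 15), TMM scaling, glmQLFit (robust) and glmQLFTest with the group as the only term, and Benjamini-Hochberg adjustment over 17778 genes with a threshold of 0.05. Standard errors and 95% intervals come from the test statistic. CPM use TMM-scaled library sizes. The common biological coefficient of variation was 9.05%, and a count of 3 equals 0.0581 to 0.0961 CPM (counting error only). Alternatives were other scalings, DESeq2 1.42.0, other filters, leaving out each library, a replicate block and removal of the GC trend (loess, span 0.3). The fit was tested on counts simulated with no outlying library and no GC trend, so the test does not cover the spread of expressing replicate 1. It recovered 58.5% of 1.5-fold, 73.1% of 2-fold and 100% of 4-fold changes at an adjusted p under 0.05 (edgeR).

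The members and gene lists were chosen with earlier results of these data known. All 10 members are named, and from each other list at most 4 genes per direction with the smallest p; further names are marked as chosen after their values were seen or complete a count of at most 5. No batch or date is given in the labels.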

Additional observations from a re-analysis of the deposited data

How the results depend on the processing

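The 8 increases kept their direction and their side of the threshold under all 15 alternatives, with log2 fold changes of 1.16 to 1.31 for Plk2, 1.00 to 1.14 for Cdkn1a, 1.02 to 1.14 for Btg2, 0.93 to 1.12 for Ccng1, 0.87 to 1.06 for Phlda3, 0.62 to 0.81 for Mdm2, 0.37 to 0.49 for Ppm1d and 0.20 to 0.35 for Zmat3. Trp53 passed the threshold with the GC trend removed (0.13), with the GC trend removed and the replicate block (0.14), and without expressing replicate 1; leaving out one library at a time gave 0.0483 to 0.2505. Mdm4 passed as lower with the GC trend removed (-0.12), with that and the replicate block (-0.12), and without expressing replicate 1, turned sign with library totals alone (0.0568) and without expressing replicate 2 (0.0228) or 3 (0.0252), and ranged from -0.1147 to 0.0252 over the libraries left out. The number of members lower was thus 1 with the GC trend removed, with or without the replicate block, and 0 to 1 over the libraries left out. Causes were not tested. With no filter on low counts edgeR's prior degrees of freedom were infinite at the median gene, against 5.41 with the filter, so the p-values of that alternative say nothing about stability.

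Library totals alone moved the median of all genes to 0.08, against -0.01, and gave 4466 genes higher and 2570 lower, against 3422 and 3695; leaving out one library gave 2541 to 4851 higher and 2627 to 4589 lower. Same-numbered libraries did not deviate together (r from -0.0342 to 0.0419), and the labels name no shared source. With 3 libraries per group and expressing replicate 1 set apart, these correlations cannot exclude a shared day or batch. A fit with the replicate block gave 3243 genes higher and 3401 lower. KO replicate 3 and expressing replicate 2, which do not share a number, had the highest such correlation (0.0656).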
